A study of Rattus norvegicus with 28 samples.

Results

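The left tibialis anterior muscles of this series are its control muscles, and they came in 2 kinds. In one arm of 7 rats the left muscle received an empty vector and the right muscle a construct carrying the vitamin D receptor (VDR). In the other arm of 7 rats the left muscle received a scramble shRNA, that is a short hairpin RNA with no intended target, and the right muscle an shRNA against Vdr. The comparison described here used the 14 left muscles of the 28 muscles in the series, chosen by their label of sham knock-in (empty vector, rats 416 to 422) or sham knock-out (scramble, rats 423 to 429). No rat contributed to both groups, so the groups were compared unpaired, 7 against 7.

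The labels give the same electroporation for both groups, with 1 pulse of 900 V/cm and 4 pulses of 90 V/cm, and carprofen, an anti-inflammatory drug, at 50 mg/kg. The rats of the study were male Wistar, 8 weeks old on arrival. Its methods describe delivery for the VDR construct arm alone, where muscles were taken 10 days after electrotransfer and an overnight fast, and whether time and feeding were the same in the shRNA arm is not given in the sources used here. The empty vector is pCAGGS in the labels and pCMV6 in the methods, which also speak of lenti-shRNA particles, so the form in which the scramble shRNA was delivered is not settled. The arm, the material delivered and any difference in handling or time between the arms coincide with the groups and cannot be told apart. Each sample is 1 muscle of 1 rat, and the injected tissue holds transfected and untransfected fibres together with the other cells of muscle.

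Several processes that the genes described below report on are known responses of cells to stress or of muscle to injury. Amino acid shortage, unfolded protein in the endoplasmic reticulum (ER) and mitochondrial faults all lead to phosphorylation of the initiation factor eIF2α, after which the transcription factor ATF4 and its partners raise genes for amino acid transport and synthesis, the tRNA synthetases and secreted signals such as FGF21 (the integrated stress response). Electroporation injures fibres, and repair brings macrophages that clear debris, dividing cells, and fibroblasts that lay down collagen.

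Sequencing depth overlapped between the groups. Total counts per muscle ranged from 38235929 to 44919933 with empty vector and from 38284146 to 45899121 with scramble (exact two-sided permutation test over all splits of the muscles, p = 0.787). The share of counts that fell to the 10 most abundant genes was 26.8 ± 3.71% with empty vector and 24.6 ± 2.58% with scramble (mean ± SD, n = 7, p = 0.217 in the same exact permutation test and 0.492 after adjustment over 3 library measures). Vdr, the gene targeted in the right legs only, did not pass the test between the left legs. Its level, in CPM (counts scaled to the size of the library), was 1.79, 3.69 and 6.37 with empty vector (lowest, median and highest of 7) and 1.3, 3.2 and 7.71 with scramble (log2 fold change 0.027 ± 0.37 SE, adjusted p = 0.969, edgeR). Gene names were at hand for 1998 genes only, and these are the genes that the study ranked highest between VDR construct legs and these same 7 empty vector legs. None of the genes listed here as markers of muscle fibres, endothelium or red cells is among them, so the tissue label could not be checked by its markers. A gene with an unusual value in the empty vector legs was more likely to be named, so the share and direction of named genes are not independent evidence of a difference from scramble.

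Across 14458 genes tested with edgeR's quasi-likelihood test, 4 were called at an adjusted p under 0.05, or 0.0277%, and all 4 were higher with empty vector. Without adjustment, 1528 genes (10.6%) were higher and 1836 (12.7%) lower at p under 0.05. Among the 1873 named genes tested these were 476 (25.4%) and 820 (43.8%), against 1052 (8.36%) and 1016 (8.07%) of the 12585 genes without a name. The median log2 fold change was 0.0094 over all genes and -0.36 over named genes. Of the 14458 genes 7398 lay on the higher side, but only 37.5% of the named genes did, the others lying on the lower side. Counts of list members on a side, given below, stand beside that share of named genes. edgeR's likelihood ratio test, an alternative that carries less of the uncertainty in a gene's own spread, called 138 named genes higher (7.37%) and 197 lower (10.5%), and 106 of the genes without a name (0.842%). In what follows, higher and lower describe empty vector relative to scramble, a gene is called only at an adjusted p under 0.05 in the quasi-likelihood test, and genes at an unadjusted p under 0.05 alone are given as counts. Fold changes are on the log2 scale with SE. Apart from Vdr and the called genes, the genes named come from the 2 most abundant of each list, together with others, such as those of smallest p or of a well-known role, that were chosen after their values were seen. The lists numbered 39, of which 34 had a member tested, with 285 different genes in all. No list could be named in full. Of 41 collagen entries 16 had a name, of 78 ribosomal protein entries 8, and of 53 interferon response entries 3. Counts below describe the named members only.

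The genes called were Herpud1, Stbd1, Rnf185 and AABR07026032.1, and in each of them every empty vector muscle exceeded every scramble muscle. Such separation was seen for 76 genes upwards (0.526%) and 19 downwards (0.131%). Herpud1 encodes an ER membrane protein that helps to pass misfolded proteins to the proteasome. Its CPM were 156, 171 and 214 with empty vector and 89.2, 100.2 and 139 with scramble (lowest, median and highest). No muscle of either group came within the range of the other, and Herpud1 rose by 0.74 ± 0.10 on the log2 scale (adjusted p = 0.0393, edgeR). Rnf185, a ubiquitin ligase that also acts in the disposal of ER proteins, rose by 1.35 ± 0.21 on the log2 scale (adjusted p = 0.0486, edgeR). Its CPM were 50.7, 67.9 and 147 with empty vector and 27.7, 30.4 and 44.4 with scramble, and the empty vector muscles spread more widely. Stbd1, a glycogen-binding protein that ties glycogen to membranes, rose by 1.17 ± 0.18 on the log2 scale (adjusted p = 0.0393, edgeR). Its CPM were 249, 456 and 516 with empty vector and 139, 189.8 and 231 with scramble, about 2.25 times as high by the fit. AABR07026032.1, known only by a clone name, was low throughout. Its CPM were 0.486, 0.737 and 2.82 with empty vector and 0.0876, 0.149 and 0.238 with scramble, and the fitted difference was 3.11 ± 0.47 (adjusted p = 0.0393, edgeR). The filter required a CPM of 0.244 before TMM scaling in 7 muscles, which all 7 empty vector muscles and 1 scramble muscle reached, so this gene was tested through the group in which it is high and its call is no independent support. The other 3 called genes passed the filter in all 14 muscles.

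These calls lie close to the threshold. The 12 genes next in order shared an adjusted p of 0.0503 (edgeR), Myc and Cebpg among them, and leaving out 1 muscle gave between 0 and 788 calls. In 9 of the 14 such fits no gene was called, and each of the 4 genes was called in 5 of them. With scaling by library size alone no gene was called and the 4 had an adjusted p of 0.241 (edgeR, 2216 genes at an unadjusted p under 0.05). Without scramble replicate 7 (rat 429) 788 genes were called, and without scramble replicate 1 (rat 423) 102 were. Leaving out empty vector replicate 2, 4 or 7 gave 22, 10 and 15, and leaving out any other muscle gave 0, with 2318 to 4297 genes at an unadjusted p under 0.05 over the 14 fits (edgeR). When all 28 muscles were fitted with the rat as a replicate block (limma voom), 91 genes were called between the left legs, these 4 among them.

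**Figure D1:**
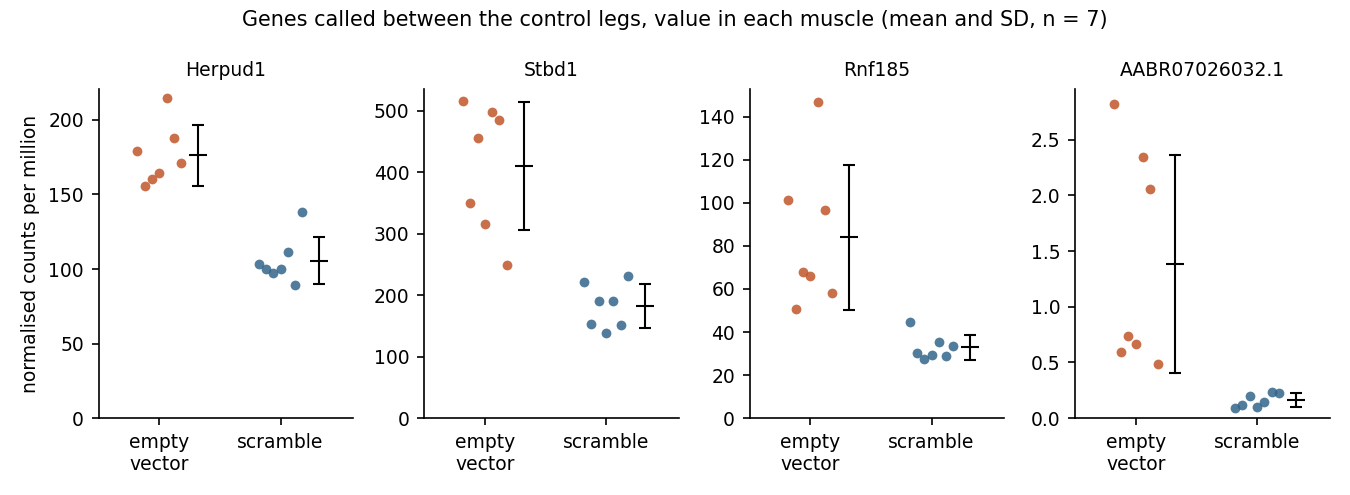
CPM (y axis, linear from 0) of the 4 called genes in each left muscle, with empty vector and scramble on the x axis, 1 point a muscle, and a bar for the mean and SD (n = 7). In each panel the 7 empty vector points lie above the 7 scramble points.

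Promoters of stress genes often hold the site that their factor binds, and sequences were read for the stress genes to set beside these values. RefSeq windows from 250 bases before to 50 bases after the transcription start (build GRCr8) were found for 42 of the 50 genes looked up. These genes were the called genes with a symbol and the tested members of the integrated stress response, tRNA synthetase and ER stress lists. Genes found only in other stress lists were not looked up. The windows were searched on both strands for 3 published elements. The first is an ER stress element of the letters ATTGG, 1 base of any kind and CCACG (ERSE-II). The second is the ER stress element CCAAT, 9 bases of any kind and CCACG (ERSE). The third is a strict form of the C/EBP-ATF site that ATF4 binds, of the letters TGATG, 1 base of any kind and AAT. Herpud1 held the first of these, which 0.0508% of all 33469 windows held. Creld2, an ER-resident protein, held the second, as did 0.0657% of windows. Fgf21, Pycr1, Aars and Iars held the third, as did 1.09%. The stretches that follow are shown because they carry these matches, in capitals, in genes described here. Each is written 5′ to 3′ along the gene's own strand, so that ATTGCATCA is the C/EBP-ATF site read from the other strand.
Herpud1: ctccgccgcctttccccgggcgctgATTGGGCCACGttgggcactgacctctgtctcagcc
Creld2: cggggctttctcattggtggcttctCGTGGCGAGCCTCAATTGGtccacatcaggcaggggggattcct
Fgf21: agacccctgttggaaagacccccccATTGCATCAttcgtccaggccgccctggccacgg
Pycr1: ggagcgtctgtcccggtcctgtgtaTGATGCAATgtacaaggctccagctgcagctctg
Aars: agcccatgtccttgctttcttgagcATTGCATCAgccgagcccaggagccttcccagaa
Iars: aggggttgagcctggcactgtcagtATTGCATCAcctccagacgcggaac
The Herpud1 stretch lies at chr19:10614796-10614856 (minus strand), with the match from -124 to -114 relative to the start. The Creld2 stretch lies at chr7:121789214-121789282 (plus strand), with the match from -145 to -127 relative to the start. The Fgf21 stretch lies at chr1:105221487-105221545 (minus strand), with the match from -144 to -136 relative to the start. The Pycr1 stretch lies at chr10:106420910-106420968 (minus strand), with the match from -131 to -123 relative to the start. The Aars stretch lies at chr19:55908344-55908402 (plus strand), with the match from -113 to -105 relative to the start. The Iars stretch lies at chr17:15193653-15193702 (minus strand), with the match from -25 to -17 relative to the start. A match describes the letters only, and no other window of the 42 held any of the 3 in these exact letters. Variants of the sites were not searched, so a window without a match may still hold one.

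Of 40 genes listed for the integrated stress response, 23 could be named and 23 were tested, 22 of them on the higher side. At an unadjusted p under 0.05, 16 were higher and 1 lower, none was called, and the median log2 fold change was 0.73. The 16 of 23 stand beside 25.4% of all named genes on that side, and the names were chosen partly on the empty vector legs. By the likelihood ratio test 8 were called, each higher, beside 7.37% of named genes called higher by that test. Sesn2, a brake on mTORC1 when amino acids are short, had CPM of 27.1, 58.9 and 114 with empty vector (lowest, median and highest) and 9.34, 18.7 and 27.8 with scramble. It exceeded all scramble muscles in 6 of 7 empty vector muscles (log2 fold change 1.85 ± 0.34, adjusted p = 0.052, edgeR). Trib3, a pseudokinase induced by ATF4 and CHOP, had the largest fold of the list, with CPM of 16.1, 37.5 and 118 against 0.642, 3.85 and 17.4 (3.07 ± 0.63, adjusted p = 0.0717, edgeR). Rats 420 and 416 stood highest, and rat 417 alone of the empty vector group lay below the highest scramble muscle, that of rat 423.

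Among the transcription factors, Cebpg, a partner of ATF4, was separated between the groups, with CPM of 63.3, 73.6 and 104 against 37.9, 45.9 and 60.3 (0.73 ± 0.13, adjusted p = 0.0503, edgeR). Atf5, a relative of ATF4 that responds to mitochondrial stress, had CPM of 57.1, 94.2 and 191 against 30.4, 38.2 and 93.6 (adjusted p = 0.0848), and 4 of 7 empty vector muscles were above all scramble muscles. Ddit3, which encodes CHOP, had CPM of 17.1, 30.1 and 46.7 against 12.3, 18.3 and 23.8 (adjusted p = 0.096). The ranges of the groups overlapped for both. Ppp1r15a, the phosphatase subunit that ends the response, and Slc3a2, the heavy chain of amino acid transporters, had the highest CPM of the list. Ppp1r15a had CPM of 59.4, 97.2 and 172 against 43.05, 67.6 and 71.6 (0.89 ± 0.22, adjusted p = 0.0885, edgeR). Slc3a2 had CPM of 89.9, 121 and 225 against 73.3, 87.7 and 107 (0.68 ± 0.19, adjusted p = 0.096, edgeR). The top of each range came from rats 416 and 420.

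Fgf21, the hormone that muscle releases under stress, had CPM of 4.28, 12.96 and 34.99 against 0.238, 3.56 and 7.95 (2.22 ± 0.59, adjusted p = 0.0903, edgeR). Of the enzymes, Asns, which makes asparagine, had CPM of 11.3, 25.5 and 53.6 against 4.44, 18.6 and 31.5, and it did not pass even the unadjusted threshold (0.84 ± 0.42, adjusted p = 0.242, edgeR). Pycr1, the last step of proline synthesis, had CPM of 5.63, 10.9 and 12.7 against 2.7, 6.18 and 9.43 (0.66 ± 0.23). The lone gene on the lower side was Eif2ak3, which encodes the ER kinase PERK, with CPM of 5.09, 6.45 and 7.52 against 6.5, 8.53 and 11.2 (-0.41 ± 0.13, adjusted p = 0.112, edgeR). Averaged over the 23 genes and set relative to the mean of the 14 muscles, the level on the log2 scale was -0.32 to 1.27 (median 0.44) with empty vector and -1.41 to 0.12 (median -0.54) with scramble. Rats 416, 420 and 421 were the highest of the empty vector rats, and 4 of 7 lay above every scramble muscle.

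The aminoacyl-tRNA synthetases, which load tRNAs with amino acids and are targets of ATF4, stood apart between the groups by small amounts. The list includes auxiliary proteins of their complex and had 24 entries. Of 16 genes tested 16 were on the higher side, 15 at an unadjusted p under 0.05, with a median log2 fold change of 0.45 and a range from 0.19 to 0.64. None was called, and the background among named genes was again 25.4%. The likelihood ratio test called 8, beside 7.37% of named genes called higher by it. In 5 of them, Mars, Gars, Sars, Nars and Lars, the groups did not overlap, which on the higher side held for 62 of the 1873 named genes and 0.526% of all genes. Mars, the methionine enzyme, had CPM of 88.2, 101 and 143 with empty vector and 57.8, 71.5 and 84.6 with scramble (0.64 ± 0.13, adjusted p = 0.0606, edgeR). Gars, the glycine enzyme, had CPM of 89.4, 101 and 164 against 66.5, 75.9 and 86.1 (adjusted p = 0.0794). The most abundant of the list by CPM, Eprs, the enzyme for glutamate and proline, had CPM of 145, 165 and 283 against 113, 148 and 178, and 3 of its 7 empty vector muscles were above all scramble muscles. Aars, the alanine enzyme whose window is shown above, had CPM of 119, 133 and 199.9 against 88.8, 101 and 123 (0.53 ± 0.13, adjusted p = 0.0854, edgeR). Averaged over the list, the relative level was -0.016 to 0.51 (median 0.074) with empty vector and -0.34 to -0.088 (median -0.19) with scramble, so all 7 empty vector muscles lay above all scramble muscles.

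The ER stress list was split in its named part, 9 of 28 entries. Of 9 genes tested, 4 were higher and 5 lower at an unadjusted p under 0.05, beside 25.4% and 43.8% of named genes. Herpud1 was the one called. The higher genes were Herpud1, the sensors Ern1 and Atf6, and Dnajb9. Ern1, which encodes the sensor IRE1, was separated between the groups, with CPM of 30.5, 39.1 and 67.8 against 22.02, 25.1 and 29.2 (0.69 ± 0.16, adjusted p = 0.0822, edgeR). Atf6, the third sensor besides PERK and IRE1, had CPM of 55.6, 59.7 and 95.96 against 42.4, 48.8 and 56.2, and Dnajb9, a co-chaperone, 23.3, 26.6 and 33.3 against 18.9, 23.2 and 24.2. The lower genes were Pdia4, Pdia3, Creld2, Sec61b and Edem2. Pdia4, a disulphide isomerase, had CPM of 20.5, 27.1 and 30.1 against 24.4, 39.3 and 46.03 (-0.57 ± 0.14, adjusted p = 0.0903, edgeR). Pdia3, another isomerase, had CPM of 80.9, 95.3 and 140.3 against 94.5, 166 and 192 (adjusted p = 0.123), and Creld2 had 4.45, 5.76 and 8.31 against 5.64, 9.02 and 11.3. The windows of Creld2 and Herpud1 both hold an ER stress element, and the genes lay on opposite sides.

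Other stress lists held few named genes, and their counts of higher genes stand beside the 25.4% of named genes at that level. All 6 heat shock genes were on the higher side, 3 of them at an unadjusted p under 0.05, with a median of 0.24. The 2 most abundant were Hsph1, a chaperone of the HSP110 family, at 69.3, 79.2 and 90.2 against 52.2, 65.8 and 81.6 CPM, and Dnajb4, at 58.02, 74.9 and 85.3 against 55.6, 58.9 and 83.2 CPM, and the groups overlapped for both. Of 5 immediate early genes 2 were higher at that level. Myc, a transcription factor that drives growth, was separated between the groups with CPM of 18.3, 25.2 and 46.2 against 11.9, 13.8 and 14.7 (1.15 ± 0.19, adjusted p = 0.0503, edgeR). Egr1 of the same list, a factor induced within minutes of a stimulus, had CPM of 9.95, 20.2 and 52.1 against 11.05, 19.1 and 31.4 and an adjusted p of 0.788 in edgeR. Gadd45a, induced by DNA damage, ATF4 and denervation, had CPM of 63.5, 119.7 and 225 against 37.3, 69.5 and 103 (0.79 ± 0.28). Fkbp5, a target of the glucocorticoid receptor, had CPM of 38.7, 70.1 and 96.7 against 19.2, 32.5 and 57.2 (0.98 ± 0.25, adjusted p = 0.0903, edgeR). Gpx1, an antioxidant enzyme, lay on the lower side at 122, 156 and 189 against 169, 191 and 293 CPM, while Nqo1, a target of NRF2, had 11.3, 15.7 and 19.3 against 9.18, 11.4 and 16.1. Of 8 ribosomal protein genes 4 were higher at an unadjusted p under 0.05, with small differences (median 0.22). The more abundant Rplp0 had CPM of 842, 1139 and 1248 against 847, 934 and 988, and the groups overlapped.

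**Figure D2:**
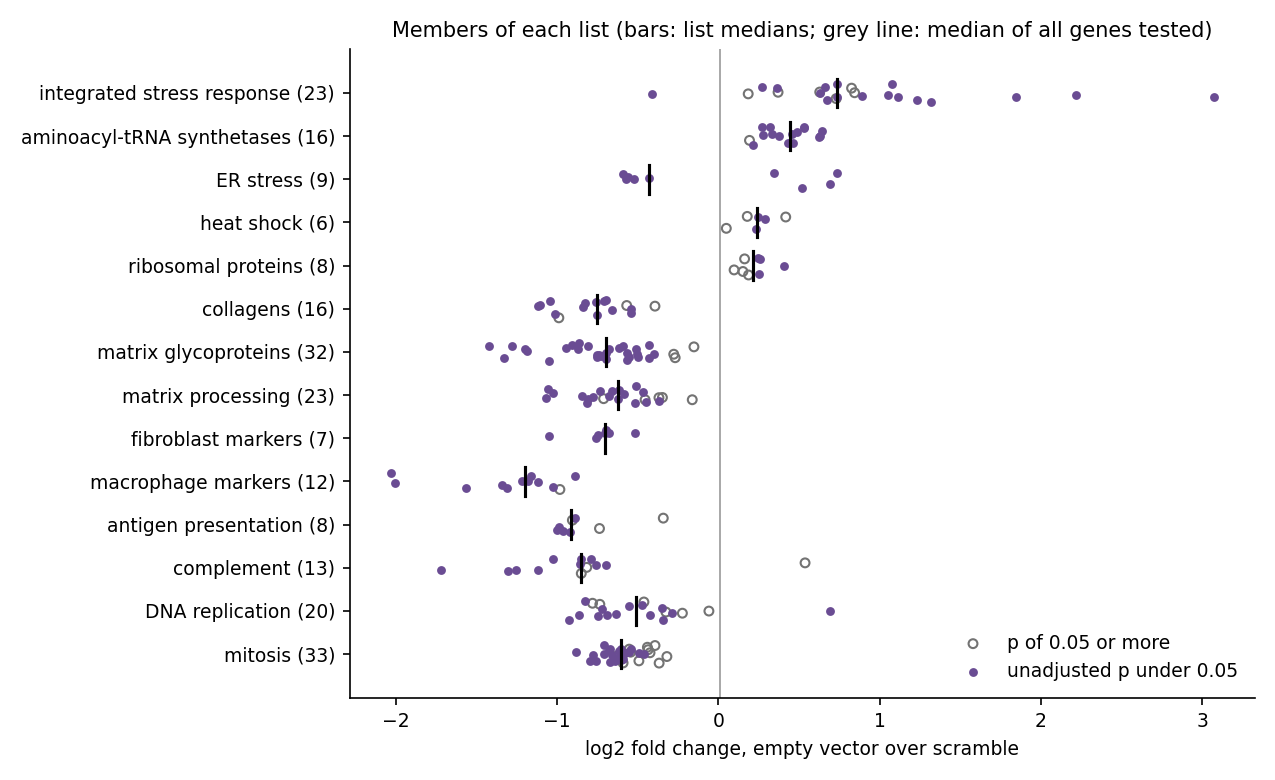
Log2 fold change of each named member (x axis, empty vector over scramble, quasi-likelihood fit) for 14 gene lists (y axis, genes tested in brackets), filled points for an unadjusted p under 0.05 and open points otherwise, with a bar at each list's median and a grey line at the median of all genes tested. Points of the integrated stress response and synthetase lists lie mostly to the right, those of the matrix, immune and cell cycle lists mostly to the left, and the ER stress list is split.

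Extracellular matrix genes lay on the lower side with empty vector. Of 16 collagen genes tested, 16 were on that side and 13 had an unadjusted p under 0.05, none was called, and the median log2 fold change was -0.75 (range -1.12 to -0.39). The 13 of 16 stand beside 43.8% of all named genes on the lower side, under the same selection of names. The likelihood ratio test called 5, beside 10.5% of named genes called lower by it. Col3a1 and Col1a1, which form the fibrils of muscle connective tissue, were the most abundant. Col1a1 had CPM of 360.4, 836 and 1636 with empty vector and 816, 1471 and 3077 with scramble (-1.01 ± 0.34, adjusted p = 0.123, edgeR). Col3a1 had CPM of 871, 1612 and 2937 against 1517, 2959 and 4808 (-0.83 ± 0.29, adjusted p = 0.134, edgeR). In both, the highest empty vector muscle (rat 419) lay within the scramble range and the lowest scramble muscle (rat 423) within the empty vector range. Col16a1, a fibril-associated collagen, had the smallest p of the list, with CPM of 6.32, 13.1 and 21.2 against 15.8, 25.4 and 46.6 (adjusted p = 0.0903), and 6 of 7 empty vector muscles lay below all scramble muscles. Col6a1, a chain of the collagen that surrounds fibres, had 86.3, 171 and 246 against 187, 287 and 410.1 CPM.

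Of 32 matrix glycoprotein and proteoglycan genes, 32 were on the lower side and 29 had an unadjusted p under 0.05, beside 43.8% of named genes (median -0.70). The likelihood ratio test called 10, beside 10.5% of named genes called lower by that test. Dcn, decorin, a proteoglycan that coats collagen fibrils, had CPM of 138, 168 and 238 against 189, 272 and 369 (-0.68 ± 0.15, adjusted p = 0.0794, edgeR). Sparc, a collagen-binding protein and the most abundant of the list, had 697, 924 and 1144 against 858, 1162 and 1812 CPM (adjusted p = 0.14). Fn1, fibronectin, had 47.7, 109.9 and 236 against 139, 249 and 332 CPM. Thbs2, thrombospondin 2, had the largest difference of the list at -1.43 ± 0.37, with CPM of 4.47, 5.07 and 10.9 against 4.33, 19.1 and 28.6. For Thbs2 the low end of the scramble range was the muscle of rat 423, which lay below all empty vector muscles.

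Of 23 genes for matrix processing, 23 were on the lower side and 18 had an unadjusted p under 0.05, beside the same 43.8% (median -0.63). By the likelihood ratio test 9 were called, beside the same 10.5%. P3h1, which hydroxylates prolines of collagen, had the smallest p, with 14.1, 15.9 and 17.6 against 16.7, 20.5 and 23.7 CPM (-0.37 ± 0.091, adjusted p = 0.0903, edgeR). Mmp14, a membrane protease that activates MMP2, had 25.1, 34.9 and 52.5 against 42.4, 56.7 and 109 CPM, and Mmp2 itself 48.1, 63.98 and 116 against 66.2, 100.4 and 202. Pcolce, an enhancer of procollagen cleavage and the most abundant, had 35.3, 90.3 and 97.8 against 86.5, 132 and 198 CPM. In the TGF-β list of 7 genes, 5 were lower and 1 higher at an unadjusted p under 0.05. Fstl1, a secreted follistatin-like protein, had 31.4, 56.6 and 73.8 against 68.4, 97.6 and 115 CPM (-0.80 ± 0.18, adjusted p = 0.0794, edgeR), and 6 of 7 empty vector muscles lay below all scramble muscles. Tgfbr2, a receptor of TGF-β, had 36.2, 40.3 and 48.1 against 41.6, 51.4 and 67.8 CPM, and the ligand Tgfb1 had 15.7, 23.4 and 36.1 against 24.4, 36.6 and 61.4. The gene on the higher side was Inhbe, an activin chain that ATF4 also induces.

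Markers of fibroblasts lay on the same side as the matrix genes. All 7 tested were on the lower side at an unadjusted p under 0.05, a level that 43.8% of named genes reached (median -0.70), and 3 of them, Dcn, Lum and Mfap5, are matrix genes too. Pdgfra, the receptor that defines the fibro-adipogenic progenitors of muscle, had 12.5, 19.02 and 27.7 against 22.1, 33.1 and 45.2 CPM (-0.75 ± 0.19, adjusted p = 0.0903, edgeR), and 6 of 7 empty vector muscles were below all scramble muscles. The mean relative level of the 7 markers was -0.87 to 0.34 (median -0.38) with empty vector and -0.14 to 0.82 (median 0.50) with scramble. In bulk muscle fewer cells of a type and less RNA per cell cannot be told apart, and the part of fibroblast number in the matrix values was not tested.

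Macrophage markers had the largest median difference of the lists with more than 5 genes tested. All 12 tested were on the lower side, 11 at an unadjusted p under 0.05, again beside 43.8% of all named genes, with a median log2 fold change of -1.20. The likelihood ratio test called 5, beside 10.5% of named genes called lower by that test. Msr1, a scavenger receptor, had the smallest p, with CPM of 0.972, 2.08 and 4.36 against 3.17, 8.13 and 20.2 (-2.03 ± 0.48, adjusted p = 0.0822, edgeR). Mrc1, the mannose receptor of repair macrophages, had 7.38, 13.7 and 25.9 against 15.1, 30.2 and 85.3 CPM (-1.57 ± 0.41, adjusted p = 0.0903, edgeR). Csf1r, the receptor on which macrophages depend, had 19.7, 47.8 and 60.2 against 47.4, 75.2 and 166 CPM. The most abundant, the lysozyme gene Lyz2, had 83.99, 153 and 354 against 207, 422 and 792 CPM (adjusted p = 0.121), and C1qc, a chain of complement C1q made by macrophages, had 28.4, 69.5 and 142 against 87.4, 138 and 346. In Lyz2, Csf1r and C1qc, rats 417, 421 and 422 were the 3 lowest of all muscles. The mean relative level of the list was -1.57 to 0.12 (median -0.26) with empty vector and -0.34 to 1.67 (median 0.47) with scramble, and these 3 empty vector rats stood below all scramble muscles while the other 4 lay among them.

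Genes of antigen presentation were lowest in the same rats. The background for the counts of lower genes that follow is again the 43.8% of named genes at an unadjusted p under 0.05. Of 8 antigen presentation genes tested, 8 were on the lower side and 5 had such a p (median -0.91). Cd74, the invariant chain of MHC class II, had 249, 412 and 861 against 521, 691 and 1761 CPM (adjusted p = 0.167), and RT1-Bb, a class II chain, 118, 152 and 447 against 262, 309 and 889. Rats 416 and 418, at the top of the empty vector range for both, lay within the scramble range. Of 13 complement genes 10 were lower at an unadjusted p under 0.05 (median -0.85), among them the inhibitor Serping1, with 61.6, 94.9 and 193 against 123, 164 and 292 CPM, and C1r, with 69.04, 131 and 225 against 139, 186 and 331. The complement list shares C1qb and C1qc with the macrophage list, so the lists are not separate. Of 11 chemokine and cytokine genes 7 were lower at that level (median -0.74). Ccl6, a chemokine of macrophages, had 13.4, 31.2 and 41.2 against 24.3, 44.7 and 149 CPM, and Il33, an alarm signal released by stromal cells, 9.01, 12.3 and 18.8 against 13.7, 17.1 and 21.3. Of 7 T and NK cell markers 2 had an unadjusted p under 0.05, both lower and a smaller share than the background, Cd4 among them with 11.2, 28.5 and 46.2 against 29.9, 52.6 and 130.2 CPM. Of 3 interferon response genes (Cxcl9, Irf1 and Irf8) none had. Cxcl9, and Ccl5 of the T and NK cell list, also belong to the chemokine and cytokine list. Cxcl9, an interferon-γ target, had 29.9, 38.1 and 109 against 42.3, 96.9 and 152 CPM and an adjusted p of 0.239 (edgeR).

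Cell cycle genes lay on the lower side by smaller amounts. Of 33 mitosis genes, 33 were on that side and 22 had an unadjusted p under 0.05 (median -0.60), beside 43.8% of all named genes. The likelihood ratio test called 1, a smaller share than the 10.5% of named genes called lower by that test. Mki67, a marker of dividing cells, had 5.23, 12.04 and 14.7 against 10.3, 15.96 and 26.2 CPM (-0.71 ± 0.25, adjusted p = 0.134, edgeR). Top2a, the topoisomerase of mitotic chromosomes, had 4.89, 9.24 and 14.01 against 8.36, 14.1 and 22.8 CPM, and Ccnb1, cyclin B1, 1.29, 3.04 and 3.97 against 3.39, 3.85 and 6.55. The lowest muscles were those of rats 421 and 422 for all 3 genes. Of 20 genes for DNA replication and entry into S phase, 13 were lower and 1 higher at an unadjusted p under 0.05, with 43.8% and 25.4% among named genes (median -0.51). Cdc25a, the phosphatase that opens S phase, was the exception on the higher side with 34.7, 52.02 and 74.9 against 20.1, 37.6 and 50.2 CPM (0.69 ± 0.24, adjusted p = 0.131, edgeR). Ccnd3, cyclin D3, had 37.8, 48.7 and 58.5 against 49.1, 59.9 and 79.1 CPM, and Mcm6, of the replicative helicase, 2.94, 5.33 and 8.78 against 4.15, 10.7 and 14.7.

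Of the defining markers chosen for other cells, Csf1r and Cd163 of macrophages, Cd3d and Cd2 of T cells, and Pdgfra, Dcn and Col1a1 of fibroblasts had a name and were tested, and those of granulocytes, B cells, adipocytes, Schwann cells and tendon were not named. Cd163, the haemoglobin scavenger receptor, had 4.37, 6.35 and 17.1 against 6.15, 17.8 and 29.8 CPM (-1.18 ± 0.38, adjusted p = 0.118, edgeR). The single genes named next, from other lists, all lay on the lower side, some of them at low CPM. Gap43, a growth protein of nerve and Schwann cells, had 0.107, 0.192 and 0.995 against 0.241, 0.617 and 1.64 CPM (adjusted p = 0.162, edgeR), and Cd22 of B cells had 0.613, 1.3 and 3.04 against 0.757, 2.98 and 8.83 (adjusted p = 0.196, edgeR). Cfd, the fat cell gene adipsin, had 5.23, 11.4 and 38.8 against 8.82, 21.5 and 50.3 CPM (adjusted p = 0.272, edgeR), Sfn of epidermis 0.17, 0.426 and 0.585 against 0.216, 0.433 and 0.811, and Cpa3 of mast cells 2.93, 3.25 and 12.8 against 5.39, 8.63 and 10.5. Of these, Gap43 and Cd22 had an unadjusted p under 0.05, while Sox9 and Runx2 of cartilage and bone and Ms4a2 of mast cells did not. The empty vector median of Gap43 lay under the filter's CPM of 0.244 and its scramble median over it. Gap43 was thus tested mainly through the group in which it is high, and its p is no independent support. Of 3 satellite cell and myogenic genes tested, from 26 entries, 2 (Heyl and Notch3) were lower at that level. Of 5 pericyte and smooth muscle genes 1, again Notch3, was. Lists this short are too small to set against the 43.8% of named genes lower at that level. The part of these cells in the values above was not tested.

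The remaining lists held 5 genes or fewer, too few to set against the 25.4% higher and 43.8% lower among named genes. Of 5 glycogen and glycolysis genes 2 were higher, Stbd1 and the branching enzyme Gbe1, and 1, the liver-type phosphofructokinase Pfkl, was lower at an unadjusted p under 0.05. Gbe1 had 83.01, 115 and 136 against 66.8, 85.8 and 98.9 CPM (0.36 ± 0.13, adjusted p = 0.132, edgeR), and Pfkl 9.89, 11.7 and 14.3 against 11.3, 17.4 and 20.2. In the vitamin D list Dhcr7, which competes for the precursor of vitamin D, had 1.97, 2.51 and 3.09 against 2.1, 4.17 and 5.58 CPM, and it and Pdia3 were lower at that level. Of 4 clock genes 3 (Clock, Hlf and Nfil3) were higher and Npas2 was lower. Clock, the core activator, had 54.2, 65.5 and 75.1 against 48.1, 53.8 and 63.98 CPM. Of 4 fasting and glucocorticoid genes 2 were higher, Fkbp5 and the thioesterase Acot1, and Cpt1a, which admits fatty acids to mitochondria, was lower at 20.1, 23.96 and 27.7 against 23.9, 29.3 and 41.3 CPM. Of 4 genes of the p53 list 3 were higher and of 4 NRF2 targets 2 were higher and 1 (Gpx1) lower, and Gadd45a, the single denervation gene tested, was higher, in each case at an unadjusted p under 0.05. Sesn2 and Gadd45a belong to the p53 list as well.

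Of the 71 named genes whose groups did not overlap, 60 were in no list, as were 1588 of all 1873 named genes tested, which is nearly the same share. Tnfsf12, the cytokine TWEAK that acts on muscle fibres, was one of 9 named genes with every empty vector muscle below every scramble muscle, with CPM of 15.98, 17.4 and 18.9 against 20.02, 22.96 and 26.98 (-0.42 ± 0.071, adjusted p = 0.0503, edgeR). Egfr, a growth factor receptor, was another, with a median CPM of 4.50 against 6.85 (-0.65 ± 0.15, adjusted p = 0.0794, edgeR). Both groups were narrow in Tnfsf12, and the gap between them was small beside its level. On the higher side, Lonp1, the protease of the mitochondrial matrix, had 136, 157 and 249 against 95.5, 106 and 129 CPM (0.71 ± 0.14, adjusted p = 0.0606, edgeR), and Ghitm, a mitochondrial inner membrane protein, 431, 553 and 689 against 254, 348 and 392. Ube2h, a ubiquitin-conjugating enzyme, had 185, 206 and 283 against 109.8, 144 and 164 CPM, and Clcn3, a chloride-proton exchanger of endosomes, 39.6, 58.9 and 72.8 against 24.1, 30.7 and 37.5. Cyp4b1, a cytochrome P450, had 21.6, 45.7 and 179.8 against 7.56, 14.04 and 21.00 CPM (2.18 ± 0.41, adjusted p = 0.0606, edgeR). G3bp1, a core protein of stress granules, had 278, 293 and 327 against 162, 204 and 263 CPM, and Gtpbp2, which rescues stalled ribosomes, 42.7, 50.2 and 76.6 against 32.7, 36.7 and 42.1. In all 7 of these higher genes the groups did not overlap.

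The muscles did not order alike for the integrated stress response and the immune lists named here. The heat shock list was highest in rats 422, 421 and 417 (0.25, 0.20 and 0.18). The integrated stress response was highest in rats 416, 420 and 421, whereas the macrophage, antigen presentation and complement lists were lowest in rats 417, 421 and 422, so that rat 421 was the one empty vector rat among the 3 outermost in both. Over all genes tested, the axis of largest variation between the left muscles (first principal component, 41.7% of variance) was highest in rats 422, 421 and 417 (67.5, 48.0 and 45.9). Scramble rat 429 came next at 28.5. Whether these lists follow that axis was not tested. Relative levels of the collagen list were -1.13 to 0.40 (median -0.37) with empty vector and -0.18 to 1.09 (median 0.50) with scramble, with rat 422 lowest and rat 425 highest. For the mitosis list they were -1.26 to 0.20 (median -0.21) and -0.36 to 0.83 (median 0.20). The synthetase list was one of 2 lists of 5 or more genes whose groups did not overlap. The other was the glycogen and glycolysis list of 5 genes, at 0.011 to 0.35 (median 0.17) against -0.32 to -0.0017 (median -0.17), which contains Stbd1.

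**Figure D3:**
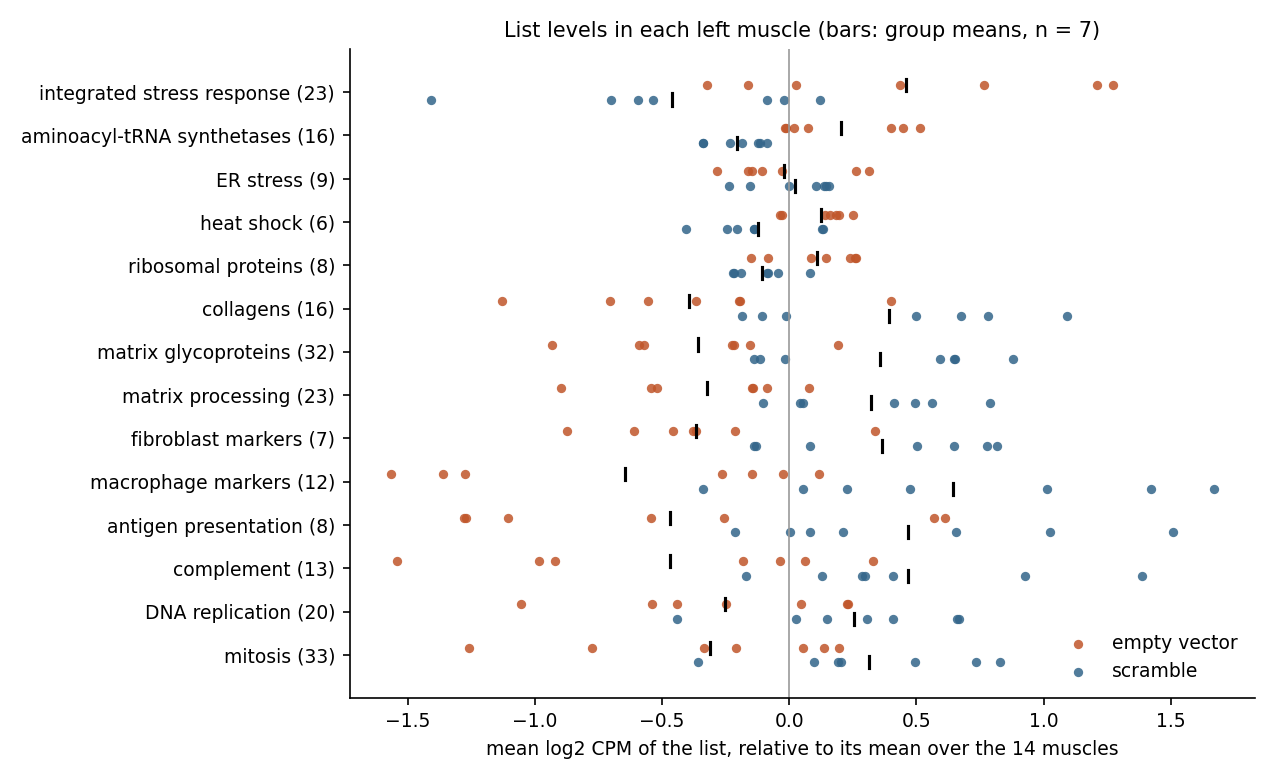
Mean log2 CPM of each list (x axis, relative to its mean over the 14 left muscles) for 14 lists (y axis, genes tested in brackets), with 1 point a muscle, empty vector above scramble in each row, and a bar at the group mean (n = 7). All 7 empty vector points of the synthetase list lie to the right of the scramble points, and in the macrophage row 3 empty vector points lie to the left of all others.

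The right legs of the same rats show how the arms compared where the other material had been delivered. Between VDR construct and VDR shRNA legs 1 of 14674 genes was called (0.00681%), Vdr itself, and at an unadjusted p under 0.05 there were 1825. The integrated stress response list, with a median of 0.73 between the left legs, had a median of -0.23 between the right legs. For the synthetases these medians were 0.45 and -0.063, for the collagens -0.75 and -0.021, for mitosis -0.60 and -0.13, and for the macrophage markers -1.20 and -0.78. In the test of the difference itself, leg by arm with the rat as a block, 0 of 15112 genes were called (0%), and the likelihood ratio test with the same block called 18. At an unadjusted p under 0.05 there were 1099 genes (7.27%), and 634 of 1930 named genes (32.8%), which is again the contrast that chose the names in part. Of the stress lists 18 of 23 integrated stress response genes and 13 of 16 synthetases were among them, of the collagens 11 of 16, and of the macrophage markers 0 of 12.

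On the scale of all 28 muscles, the integrated stress response list stood at 0.82 ± 0.65 with empty vector, -0.098 ± 0.53 with scramble, -0.62 ± 0.22 with VDR construct and -0.11 ± 0.65 with VDR shRNA (mean ± SD, n = 7). The synthetases stood at 0.36 ± 0.24, -0.053 ± 0.11, -0.18 ± 0.044 and -0.12 ± 0.14 in the same order. For both, the mean of scramble lay nearer to that of the right legs than the mean of empty vector did. The macrophage markers stood at -1.10 ± 0.72, 0.19 ± 0.74, 0.16 ± 0.52 and 0.75 ± 1.10, and the collagens at -0.60 ± 0.48, 0.18 ± 0.49, 0.23 ± 0.61 and 0.19 ± 0.71. The empty vector legs were the lowest of the groups in both. Because the named genes are those that set the VDR construct legs apart from these empty vector legs, the position of the empty vector group relative to its own right legs was part of how the genes were chosen.

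**Figure D4:**
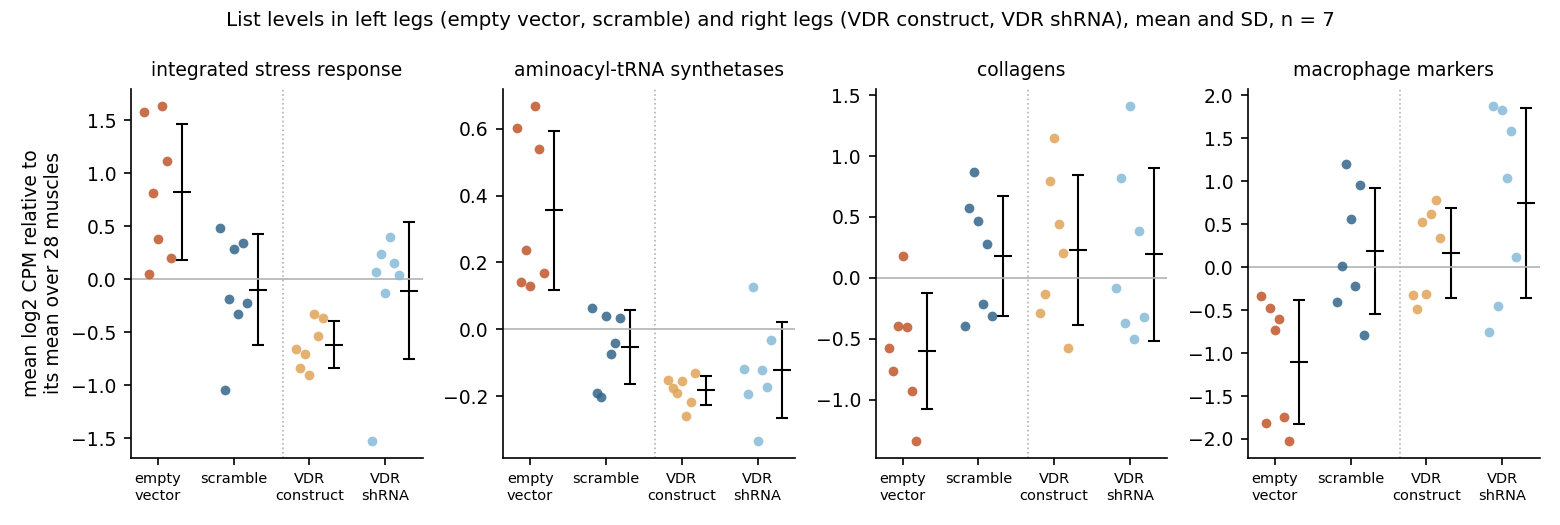
Mean log2 CPM of 4 lists (y axis, relative to the mean over 28 muscles) in left legs (empty vector, scramble) and right legs (VDR construct, VDR shRNA), with 1 point a muscle and a bar for the mean and SD (n = 7). The empty vector group has the highest mean for the integrated stress response and the synthetases and the lowest for collagens and macrophage markers.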

How the data were processed

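RNA from 28 muscles was prepared with TruSeq and sequenced on an Illumina HiSeq as 75 bp paired-end reads. The authors trimmed reads, dropped unpaired ones and counted genes with Rsubread on rat genome version 6.0 (Ensembl release 89), and deposited their raw counts for each gene and muscle. The submitters' processing notes also list bcl2fastq 2.17.1.14, FastQC 0.11.5 and edgeR 3.18.1. Whether counting used strand is not given in the sources used here, so reads of overlapping or antisense genes may be shared.

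Groups came from the labels. Of 32883 genes, those over a CPM of 0.244 (a count of 10 in the median library) in at least 7 of the 14 muscles were tested, without covariates, with edgeR 4.0.16 (TMM scaling, quasi-likelihood F-test, Benjamini-Hochberg, R 4.3.3). CPM printed are TMM-scaled. The design assumed counts and the files held them. The study's methods state edgeR's glmFit function for legs within a rat and no test for this contrast. The quasi-likelihood test was chosen because the likelihood ratio test had called too many genes in earlier work. Right legs were fitted in the same way, and leg by arm with the animal identifier as a block, since both legs belong to 1 rat (deviations of a rat's legs correlated by 0.069 on average, from -0.548 to 0.539, over 14 rats). Alternatives used the likelihood ratio test, DESeq2 1.42.0, limma 3.58.1, other scaling and filters, and each muscle left out in turn. No muscles of a group agreed within sampling noise (smallest chi-square per degree of freedom 41.1 over 42 pairs).

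Names for 1998 genes came from the study's table of genes with the smallest p between VDR construct and empty vector legs, and no value of it was used. Of these, 1769 had a RefSeq entry. The share of mitochondrial reads was planned and could not be computed because those genes had no name. Members and lists were chosen with earlier results of these data known. The rule for named genes took Vdr, called genes and, in a list without a call, the 2 members with the highest mean CPM. The fits were also run on simulated counts in which genes varied independently of each other, which genes in a muscle need not do, so no support is drawn from that run. Each sample is a separate muscle, and p-values between the arms set their difference against the spread between rats of an arm. In the leg by arm test with the rat as a block, that spread is the one of the difference between a rat's legs.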

Additional observations from a re-analysis of the deposited data

Results flagged for a closer look

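Of 262 groups of 7 values tested for a muscle far from the rest, 5 were flagged, fewer than the 1 in 20 that chance flags. Egr1, an early response factor, stood at 52.1 CPM in empty vector replicate 1 (rat 416), and the nearest of the other empty vector muscles was at 21.8. Without that muscle the log2 fold change of Egr1 was -0.19 in place of 0.15. Mmp2, the gelatinase, stood at 116 CPM in empty vector replicate 4 (rat 419), with the nearest at 73.3, and this rat was also the highest of its group for Col1a1 and Col3a1. Fkbp5, the glucocorticoid receptor target, stood at 57.2 CPM in scramble replicate 7 (rat 429), with the nearest at 35.3. Egfr, the growth factor receptor, stood at 10 CPM in scramble replicate 2 (rat 424), with the nearest scramble muscle at 7.97. Mfap5, a protein of elastic microfibrils in the fibroblast and matrix lists, stood at 25.9 CPM in empty vector replicate 4 (rat 419), with the nearest at 15.4.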

How the results depend on the processing

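The count of 4 called genes between the left legs depended on the processing. The likelihood ratio test called 441 (174 higher, 267 lower), DESeq2 996 (417 and 579) and DESeq2 size factors within edgeR 12, while library size alone called 0 (2216 at an unadjusted p under 0.05). No filter on low counts gave 7 and a filter on all 14 muscles 16. A fit of all 28 muscles without the replicate block called 132 (110 higher, 22 lower), and limma voom with the rat as replicate block 91 (85 higher, 6 lower). In 2 settings chosen after seeing the data, genes without a name adjusted alone gave 0 (2068 at an unadjusted p under 0.05, edgeR) and a threshold of 0.1 gave 464. Leaving out 1 muscle gave 0 to 788 between the left legs and 0 to 162 between the right legs, where the likelihood ratio test called 30. For the difference between the legs, the fit without the replicate block called 11 and the likelihood ratio test with it 18. The cause was not tested. All list medians kept their direction. Library size alone shifted the median of all genes by -0.12 (log2), and with it Vdr stood at -0.14 and Psmd11, of the proteasome, at -0.011. Without 1 muscle Vdr ranged from -0.12 to 0.28, and Egr1 from -0.19 (without empty vector replicate 1) to 0.29. The files hold at least 38235929 counts per muscle, and genes under a CPM of 0.244 were not tested. The spread between 7 rats a side, the arms' confounding with the material delivered, and names held by a selected share of genes limit what was measured.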
